A study of Homo sapiens with 12 samples.

Results

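Senexin B, which blocks the Mediator kinases CDK8 and CDK19, lowered the mRNA of 3 of 5 amino acid transporters (SLC1A5, SLC7A5 and SLC7A1) and of the factor ATF5 in resting HEK293 cells, of which the SLC1A5 call alone held whichever of the 6 libraries compared was left out. TNFα raised PPP1R15A and lowered SLC38A2, while most of the amino acid and endoplasmic reticulum (ER) stress response moved little. The 39 genes described here are that response: targets of the factor ATF4, amino acid transporters, tRNA synthetases and genes of the unfolded protein response. They were taken by symbol from a count table of 56634 gene symbols. All 39 were in the table, and all 39 were among the 14822 genes that passed the filter on low counts. By role they are 5 transcription factors, 5 feedback and stress effectors, 6 enzymes of amino acid and one-carbon synthesis, 5 amino acid transporters, 10 genes of tRNA charging and export, and 8 ER chaperones and other genes of the unfolded protein response.

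RNA was sequenced from HEK293, a human embryonic kidney line that carries adenovirus DNA, in 12 libraries, with 4 groups of 3 biological replicates. In the DMSO group the medium held 0.1% DMSO for 3 h, and in the SnxB group 1 µM Senexin B for 3 h. The TNF group first had 0.1% DMSO (1 h), followed by TNFα at 10 ng/mL (2 h). The TNF_SnxB group first had 1 µM Senexin B (1 h), followed by the same TNFα treatment (2 h). Senexin B inhibits CDK8 and CDK19, paralogous kinases that bind the Mediator complex of transcription, and TNFα is an inflammatory cytokine that signals through NF-κB. All groups were the same line in high-glucose DMEM with 10% serum and 2 mM L-glutamine, plated 24 h earlier, and the labels name no group deprived of amino acids or given an ER stressor.

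Library totals ran from 8705277 to 50943310 counts, so that 3 counts, taken as the detection floor, stood for 0.0589 to 0.345 CPM (a count scaled to the size of its library). TNF library 2 was the deepest, at 4.87 times the median total of the others. CPM values here are scaled by TMM, an edgeR factor that corrects for library composition, and the spread within a group is given as the SD over n = 3 libraries. The treatments were checked in NFKBIA, a target of NF-κB, and in MYC. NFKBIA stood at 27.3 ± 1.94 CPM in DMSO and 271 ± 1.68 CPM in TNF, and MYC stood at 91.1 ± 4.00 CPM in DMSO and 18.05 ± 0.789 CPM in SnxB. Summed over 6 leukocyte markers the libraries held at most 0.437 CPM, and over 4 endothelial markers at most 0.870 CPM. A list of 4 fibroblast genes summed to 13.8 to 17.5 CPM, nearly all of it COL1A1. Of 6 genes typical of the HEK293 line, VIM, NEFL and INA made up nearly all of a summed 537 to 634 CPM.

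TNF_SnxB libraries 2 and 3 stood apart from TNF_SnxB library 1. The chi-square per degree of freedom between their counts and those of library 1 was 5.63 and 5.39, against 1.07 to 1.58 for every other pair within a group. In libraries 2 and 3 the deviation of a gene from its mean over all libraries fell with the GC content of its transcript, with Spearman correlations across the 39 genes of -0.69 and -0.78, and of 0.23 in library 1 (genes are not independent replicates). The correlation was positive in the 3 TNF libraries (0.50 to 0.63) and in DMSO library 2 (0.45), and -0.08 to 0.16 in the other 5 libraries. The fold change in TNF against DMSO had a correlation with GC of 0.29 over the 39 genes, and of 0.03 after the correction described next, which left the same 3 genes called there. Fold changes of single genes that use the TNF_SnxB group are given with all 3 libraries, with library 1 alone, and with a correction for GC content and transcript length fitted in every library. With library 1 alone, that sample is assumed to vary like the other groups.

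As background, shortage of amino acids, unfolded protein in the ER and other stresses activate kinases that phosphorylate the translation factor eIF2α. Protein synthesis as a whole then slows, while the ATF4 mRNA is translated more, and ATF4 with C/EBP partners switches on genes for the uptake and synthesis of amino acids and for charging tRNA. In the ER the sensors PERK, IRE1 and ATF6 raise chaperones and degradation factors, and PPP1R15A (GADD34) closes the loop by bringing a phosphatase to eIF2α. Since much of this control acts on translation and on splicing of XBP1, a gene's total mRNA is only part of its state, and only mRNA was measured here.

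DNA elements of the response are shown because ATF4 and the factors of the ER sensors are known to bind them. The 39 genes were chosen as known members of the response, so a share of these elements above that of all promoters is not an independent result. RefSeq promoters on GRCh38.p14, from 250 bases before to 50 bases after the start of a gene, were at hand for 34 of the 39 genes, 28 matched by symbol and 6 by an older symbol. PSPH, SHMT2, GARS, YARS and SARS had no entry. The core of the C/EBP-ATF response element, TGATGNAA, was searched on both strands and lay in 9 of the 34 windows (26.5%), against 3.62% of 35114 promoters of the same length. Below, 30 bases around each match are written 5′ to 3′ along the gene, with the match in capitals.

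CHAC1, chr15:40953251-40953280, plus strand: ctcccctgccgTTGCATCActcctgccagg
ASNS, chr7:97872458-97872487, minus strand: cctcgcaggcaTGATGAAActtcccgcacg
SLC3A2, chr11:62881719-62881748, plus strand: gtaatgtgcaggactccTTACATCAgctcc
SLC7A1, chr13:29595663-29595692, minus strand: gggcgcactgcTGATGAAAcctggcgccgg
AARS, chr16:70289675-70289704, minus strand: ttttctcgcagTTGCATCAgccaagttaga
MARS, chr12:57488053-57488082, plus strand: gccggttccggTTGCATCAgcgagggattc
NARS, chr18:57621804-57621833, minus strand: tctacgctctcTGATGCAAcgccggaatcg
IARS, chr9:92293692-92293721, minus strand: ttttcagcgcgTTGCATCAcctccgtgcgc
HERPUD1, chr16:56931955-56931984, plus strand: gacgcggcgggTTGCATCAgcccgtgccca

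The ER stress response element, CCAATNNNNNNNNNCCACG, searched in the same way, lay in 4 of the 34 windows (11.8%), against 0.0769% of all promoters. All 4 belong to chaperones or the factor XBP1, and HSP90B1 had a pair of matches. The unfolded protein response element, TGACGTGG, was in 0 of the 34 windows and in 0.729% of all promoters.

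HSPA5, chr9:125241386-125241415, minus strand: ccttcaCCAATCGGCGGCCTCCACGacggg
XBP1, chr22:28800598-28800627, minus strand: cgctggCCAATCGCGGAGGGCCACGaccgt
CALR, chr19:12938378-12938407, plus strand: cccacgCGTGGTCGACCATCATTGGtcggt
HSP90B1, chr12:103930210-103930239, plus strand: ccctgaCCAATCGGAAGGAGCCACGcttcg
HSP90B1, chr12:103930315-103930344, plus strand: tgggtgCGTGGTGCGGCGCGATTGGtgggt

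The 250 bases before the start are given for the 3 genes that carry most of the results below. SLC1A5 and PPP1R15A held no match to any motif searched. SLC7A5 held an E-box, CACGTG, and a match to a κB-like pattern, GGGNNNTTCC on its reverse strand, both in capitals. These 2 patterns were added after values had been seen, and lay in 7.26% and 6.52% of all promoters. An E-box shares the letters CACG with the end of the ER stress response element, so one stretch can count for both. A match is a stretch of letters and does not show that a factor binds it.

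SLC1A5, chr19:46788595-46788844, minus strand: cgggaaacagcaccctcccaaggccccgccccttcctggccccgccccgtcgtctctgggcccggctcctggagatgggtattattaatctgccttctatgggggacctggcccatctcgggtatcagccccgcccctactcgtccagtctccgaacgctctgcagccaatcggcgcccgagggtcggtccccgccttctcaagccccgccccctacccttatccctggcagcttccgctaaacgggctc
SLC7A5, chr16:87869508-87869757, minus strand: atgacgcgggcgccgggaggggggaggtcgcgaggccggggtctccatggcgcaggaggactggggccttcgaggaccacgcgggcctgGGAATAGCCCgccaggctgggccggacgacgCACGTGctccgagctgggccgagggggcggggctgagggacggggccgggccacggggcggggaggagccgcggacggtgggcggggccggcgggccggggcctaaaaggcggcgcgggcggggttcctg
PPP1R15A, chr19:48872171-48872420, plus strand: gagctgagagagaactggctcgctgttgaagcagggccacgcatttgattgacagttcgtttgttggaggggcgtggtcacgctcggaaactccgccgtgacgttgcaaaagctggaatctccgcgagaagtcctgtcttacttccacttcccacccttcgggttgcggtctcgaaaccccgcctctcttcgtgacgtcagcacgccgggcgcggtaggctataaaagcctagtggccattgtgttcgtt

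Per kilobase of exon, the DMSO libraries held the most RNA for the ER chaperones CALR, at 363 ± 13.7 CPM per kb, and HSP90B1, at 319 ± 8.16. ATF4 came next at 272 ± 1.74 CPM per kb, well above the other 4 factors. HSPA5, the ER chaperone also called BiP, stood at 147 ± 2.88 and PHGDH, the first enzyme of serine synthesis, at 126 ± 2.90. PHGDH and the serine tRNA synthetase SARS, at 123 ± 2.21, were within their spread of each other. At the other end were CHAC1, an enzyme that degrades glutathione, at 2.15 ± 0.419 CPM per kb, and the lipoprotein receptor VLDLR at 1.09 ± 0.214. Replicates were close: the coefficient of variation over the DMSO libraries had a median of 2.98% among the 39 genes and ran from 0.505% for SLC3A2 to 19.6% for VLDLR. Together the 39 genes held 0.862% to 0.882% of the counts of a library.

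A gene was called when its adjusted p was under 0.05 in the edgeR quasi-likelihood test (Benjamini-Hochberg over all 14822 genes). Senexin B in resting cells lowered 4 of the 39 genes and raised 0; in RNA of a whole culture, fewer expressing cells and less RNA per cell cannot be told apart. The 4 were SLC1A5, SLC7A5, SLC7A1 and ATF5, or 10.3%, against 1.69% of all tested genes called lower, 0.344% called higher and 2.03% called in either direction. The median log2 fold change was -0.05 over the 39 genes and 0.00 over all tested genes. In 15 of the 39 genes (38.5%) every SnxB library lay below every DMSO library, against 10.9% of all tested genes, and in 4 (10.3%) every SnxB library lay above, against 9.49%. Of the 5 amino acid transporters, all had a negative log2 fold change and 3 were called. SnxB is compared with the same DMSO libraries as TNF, so that the DMSO values enter both sets of fold changes.

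TNFα without the inhibitor raised 1 of the 39 genes, PPP1R15A, and lowered 2, SLC38A2 and VLDLR. That is 7.69% of the genes, against 2.02% of all tested genes called, 1.43% higher and 0.594% lower. The medians were 0.00 for the 39 genes and 0.00 for all tested genes. Groups did not overlap in 12 of the 39 genes (30.8%), against 20.2% of all tested genes. The interval of the fold change bounds what could have been missed. For 36 of the 39 genes in TNF against DMSO, and for 38 in SnxB against DMSO, the 95% interval lay within 1.5-fold in either direction. The genes outside it were CHAC1, PPP1R15A and VLDLR in the first and CHAC1 in the second.

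**Figure D1:**
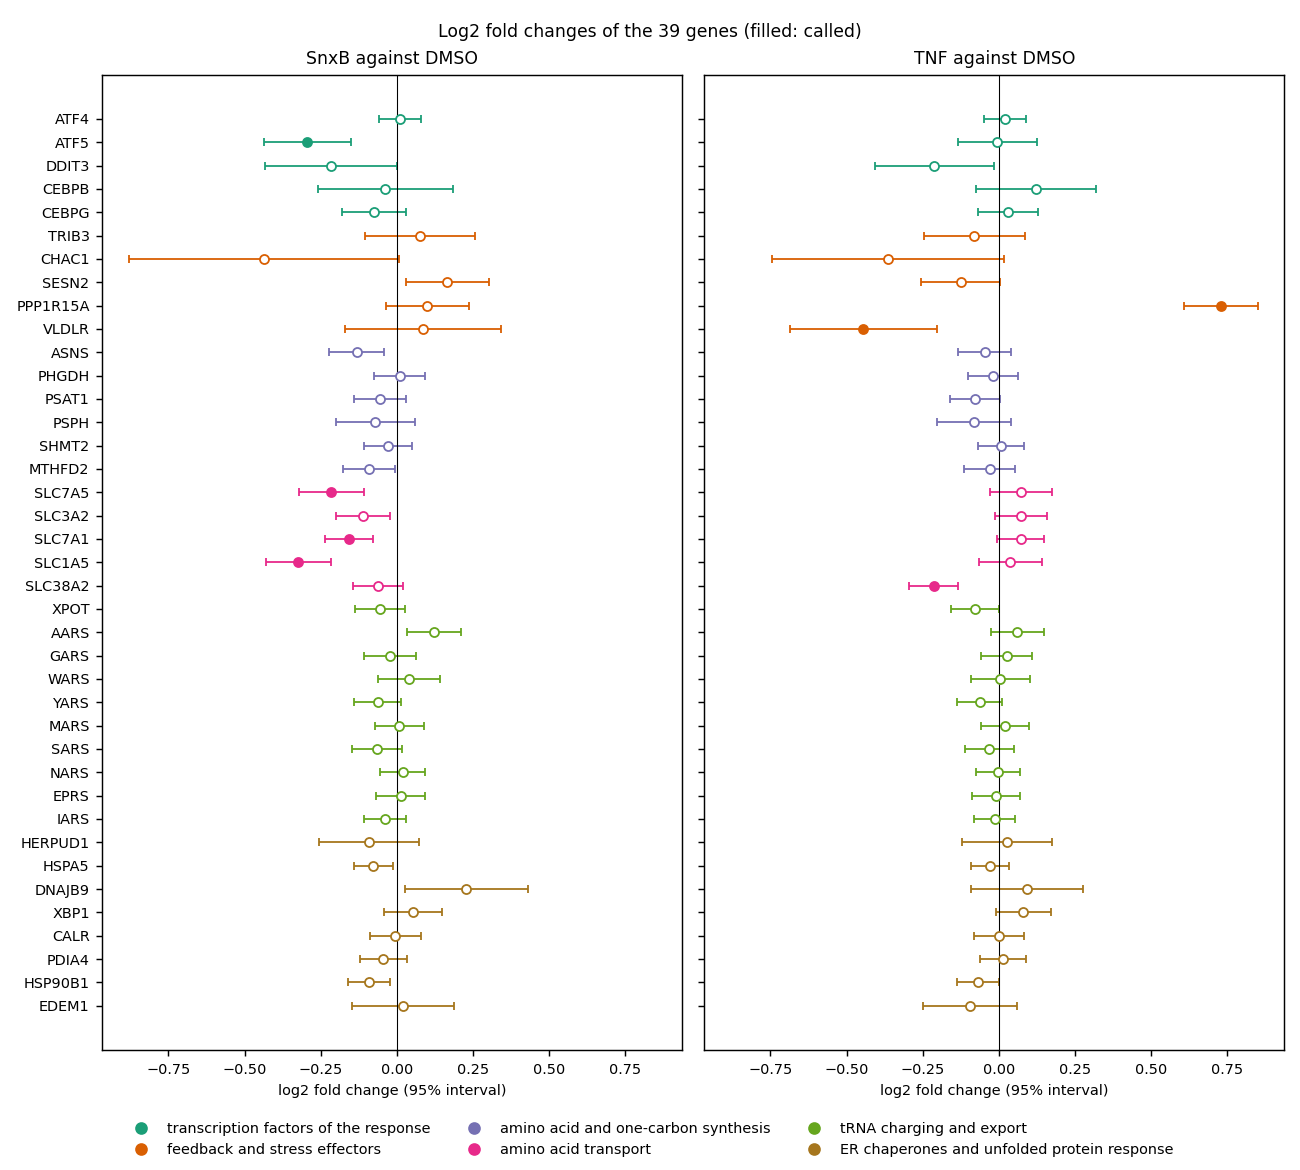
Log2 fold change of each of the 39 genes in SnxB against DMSO (left) and TNF against DMSO (right), with 95% intervals, coloured by role; filled points were called and open points were not. The called genes on the left are 3 transporters and ATF5, all lower, and on the right PPP1R15A higher with VLDLR and SLC38A2 lower.

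With TNFα present, Senexin B gave 13 called genes of 39 (33.3%; 6 higher, 7 lower), against 27.2% of all tested genes (13.3% higher, 13.9% lower). In this comparison the log2 fold change of the 39 genes followed GC content, with a Spearman correlation of -0.77 over n = 39 genes that share their libraries. With TNF_SnxB library 1 alone 4 of 39 were called (10.3%), against 2.64% of all genes (0.727% higher, 1.91% lower): SLC1A5, SLC7A5 and ATF5 were lower and SESN2 was higher. The correlation with GC was then -0.15. After the GC and length correction 11 were called (28.2%), against 11.4%, and the same 4 genes were among them. Those 4 were called in all 16 alternative settings run for the comparison.

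TNFα in inhibited cells, TNF_SnxB against SnxB, gave 8 called genes (20.5%; 5 higher, 3 lower), against 14.2% of all tested genes (7.38% higher, 6.83% lower). With library 1 alone 2 were called (5.13%), against 1.43%: PPP1R15A and SLC7A1, both higher, as were 1.16% of all genes. After the correction 6 were called (15.4%), against 4.78%, and both of these genes were among them. The comparison of effects, the interaction term, asks whether TNFα acted differently with the inhibitor. It called 1 gene, SLC38A2 (2.56%, against 2.5% of all tested genes). With library 1 alone it called 0 by edgeR, against 0.124% of all genes, and after the correction 1, YARS, against 0.256%. With all 3 libraries 12 of the 39 (30.8%) had an unadjusted p under 0.05, against 23.5% of all genes, and DESeq2 called 2, against 3.03%.

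**Figure D2:**
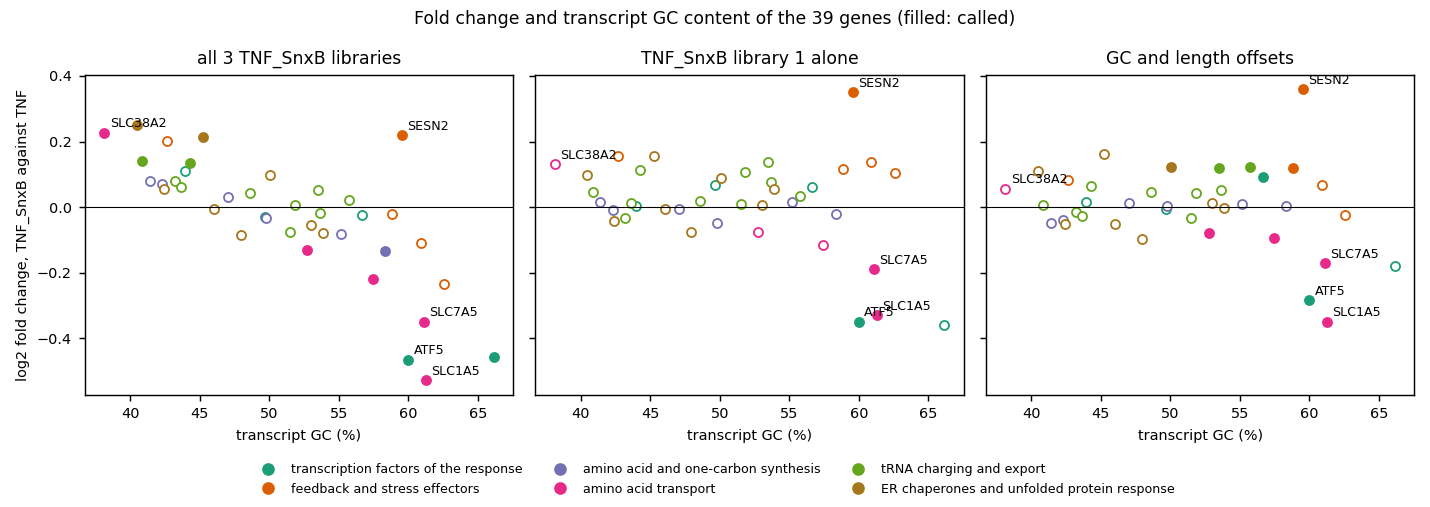
Log2 fold change in TNF_SnxB against TNF against the GC content of the longest transcript in percent, for the 39 genes, with all 3 TNF_SnxB libraries, with library 1 alone and with the GC and length correction; filled points were called. The slope across genes in the first panel (Spearman -0.77) is near flat in the other panels (-0.15 and -0.12), while SLC1A5, SLC7A5 and ATF5 stay low and SESN2 stays high.

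The transcription factors come first. ATF4 (chr22:39519695-39522685, plus strand, GENCODE 29 on GRCh38, as for all genes here) was at 690, 682 and 683 CPM in the DMSO libraries, against 697, 679 and 696 with Senexin B, 692, 700 and 692 with TNFα, and 726, 655 and 673 with both. The groups overlap, apart from TNF lying just above DMSO, and the spread is widest in TNF_SnxB. Its log2 fold change was 0.01 in SnxB against DMSO (95% interval -0.06 to 0.08, adjusted p 0.956) and 0.02 in TNF against DMSO (-0.05 to 0.09, adjusted p 0.917). In TNF_SnxB against TNF the sign depended on the libraries: -0.02 with all 3 (adjusted p 0.651), 0.06 with library 1 alone (adjusted p 0.362) and 0.09 after the GC correction, where it was called (adjusted p 0.00478).

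ATF5 (chr19:49928702-49933935, plus strand), an ATF4-related factor linked to the mitochondrial stress response, stood at 71.4, 70.9 and 61.3 CPM in DMSO and 59.5, 55.9 and 50.6 in SnxB. TNF had 74.2, 64.8 and 66.2 CPM and TNF_SnxB 52.5, 47.1 and 47.8. Every library with Senexin B lay below every library without it. ATF5 fell by 0.29 on the log2 scale (SE 0.0700, adjusted p 0.0184) in SnxB against DMSO. The call was kept without DMSO replicate 3 or SnxB replicate 1 and lost without DMSO replicate 1, DMSO replicate 2, SnxB replicate 2 or SnxB replicate 3 (log2 -0.24 to -0.30, adjusted p 0.0790 to 0.205). With TNFα present it fell by 0.47 with all libraries (adjusted p 1.34e-05), 0.35 with library 1 alone (adjusted p 0.00249) and 0.28 after the correction (adjusted p 1.91e-05). Exons of NUP62 on the opposite strand cover 21.9% of the exon bases of ATF5, and whether the counting used strand is not given in the sources used here. NUP62 itself had a log2 fold change of -0.02 in SnxB against DMSO (adjusted p 0.962). In TNF_SnxB against TNF with all libraries it was called lower, like ATF5 (log2 -0.18, edgeR adjusted p 0.0077). Whether shared reads entered the ATF5 values was not tested.

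DDIT3 (CHOP; chr12:57516588-57521737, minus strand), a factor that rises in prolonged ER stress, was a low transcript here. Its CPM was 15.8, 15.1 and 17.4 in the DMSO libraries, 14.4, 14.3 and 13.01 with Senexin B, 14.6, 14.3 and 12.5 with TNFα, and 14.7, 11.6 and 14.8 with both. All libraries with Senexin B or TNFα lay below the lowest DMSO library, but none of the tests called it. The log2 fold change was -0.22 in SnxB (interval -0.43 to 0.00, adjusted p 0.421) and -0.21 in TNF (-0.41 to -0.02, adjusted p 0.420), both against DMSO. CEBPB and CEBPG, C/EBP partners of ATF4, were not called in either of these comparisons (log2 -0.07 to 0.12). With TNFα present CEBPB was called lower by Senexin B with all libraries (log2 -0.46, adjusted p 0.00136). It was not among the genes called with library 1 alone (-0.36) or after the correction (-0.18). CEBPG was called higher in TNF_SnxB against SnxB with all libraries (log2 0.21, adjusted p 0.00650). Of 16 alternatives 13 kept that call (log2 0.12 to 0.26 over all 16), and library 1 alone did not.

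Among the feedback genes, PPP1R15A (chr19:48872392-48876057, plus strand) had the largest response to TNFα of the 39. DMSO libraries held 45.1, 41.6 and 42.6 CPM and TNF libraries 70.7, 72.8 and 70.4. SnxB libraries held 45.1, 47.7 and 45.8 CPM and TNF_SnxB libraries 78.0, 69.5 and 65.6. All 6 libraries with TNFα lay above all 6 without it, whether or not the inhibitor was present. The log2 fold change with TNFα was 0.73 (SE 0.0590, adjusted p 3.55e-10) without Senexin B and 0.61 (SE 0.0620, adjusted p 5.83e-08) with it. With library 1 alone the second was 0.75 and after the GC correction 0.73. The difference of the 2 effects was -0.12 (interval -0.30 to 0.06, adjusted p 0.406), so a difference was not shown, and effects up to 0.30 apart are within the interval; it was 0.02 with library 1 alone and 0.02 after the correction. Senexin B alone gave 0.10 (interval -0.04 to 0.24, adjusted p 0.613).

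SESN2 (chr1:28259527-28282491, plus strand), a leucine sensor that restrains mTORC1, stood at 43.7, 40.6 and 45.4 CPM in DMSO and 46.8, 50.2 and 48.5 in SnxB. It was at 38.3, 40.9 and 38.6 CPM in TNF and 51.0, 43.0 and 45.5 in TNF_SnxB. Each group with Senexin B lay wholly above its own control group. In TNF-treated cells the inhibitor raised it by 0.22 on the log2 scale (SE 0.0622, adjusted p 0.0102), by 0.35 with library 1 alone (adjusted p 0.00264) and by 0.36 after the correction (adjusted p 3.39e-07). In resting cells the value was 0.17 (interval 0.03 to 0.30, adjusted p 0.283), which was not called. The interaction was 0.05 with all libraries (adjusted p 0.766), 0.19 with library 1 alone (adjusted p 0.723) and 0.21 after the correction (adjusted p 0.350), so the effect was not shown to differ between resting and TNF-treated cells.

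VLDLR (chr9:2621834-2660053, plus strand), an ATF4 target in ER stress, had the lowest level per kb of the 39. The DMSO libraries held 9.03, 8.71 and 12.2 CPM, those with Senexin B 10.5, 11.7 and 9.73, those with TNFα 6.98, 7.40 and 7.66, and those with both 8.23, 8.22 and 8.94. DMSO library 3 was well above the other 2 DMSO libraries, and all TNF libraries were below all DMSO libraries. VLDLR fell by 0.44 with TNFα (SE 0.118, adjusted p 0.0402). Without DMSO replicate 3 the value was -0.27 (adjusted p 0.562), the call was also lost without TNF replicate 1, 2 or 3 (adjusted p 0.0866 to 0.259), and with TNF library 2 thinned to the depth of the others the adjusted p was 0.151. The adjusted p was 0.161 by DESeq2 and 0.0502 with no low-count filter. In all, 10 of 17 alternatives kept the call. TRIB3, a pseudokinase that inhibits ATF4, and CHAC1 were not called in TNF or SnxB against DMSO. TRIB3 was called lower in TNF_SnxB against SnxB with all libraries (log2 -0.27, adjusted p 0.0443), a call kept in 5 of 16 alternatives. CHAC1 had 4.43 ± 0.863 CPM in DMSO, and its intervals reached -0.74 in TNF and -0.88 in SnxB on the log2 scale, so that falls up to that size are within them.

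**Figure D3:**
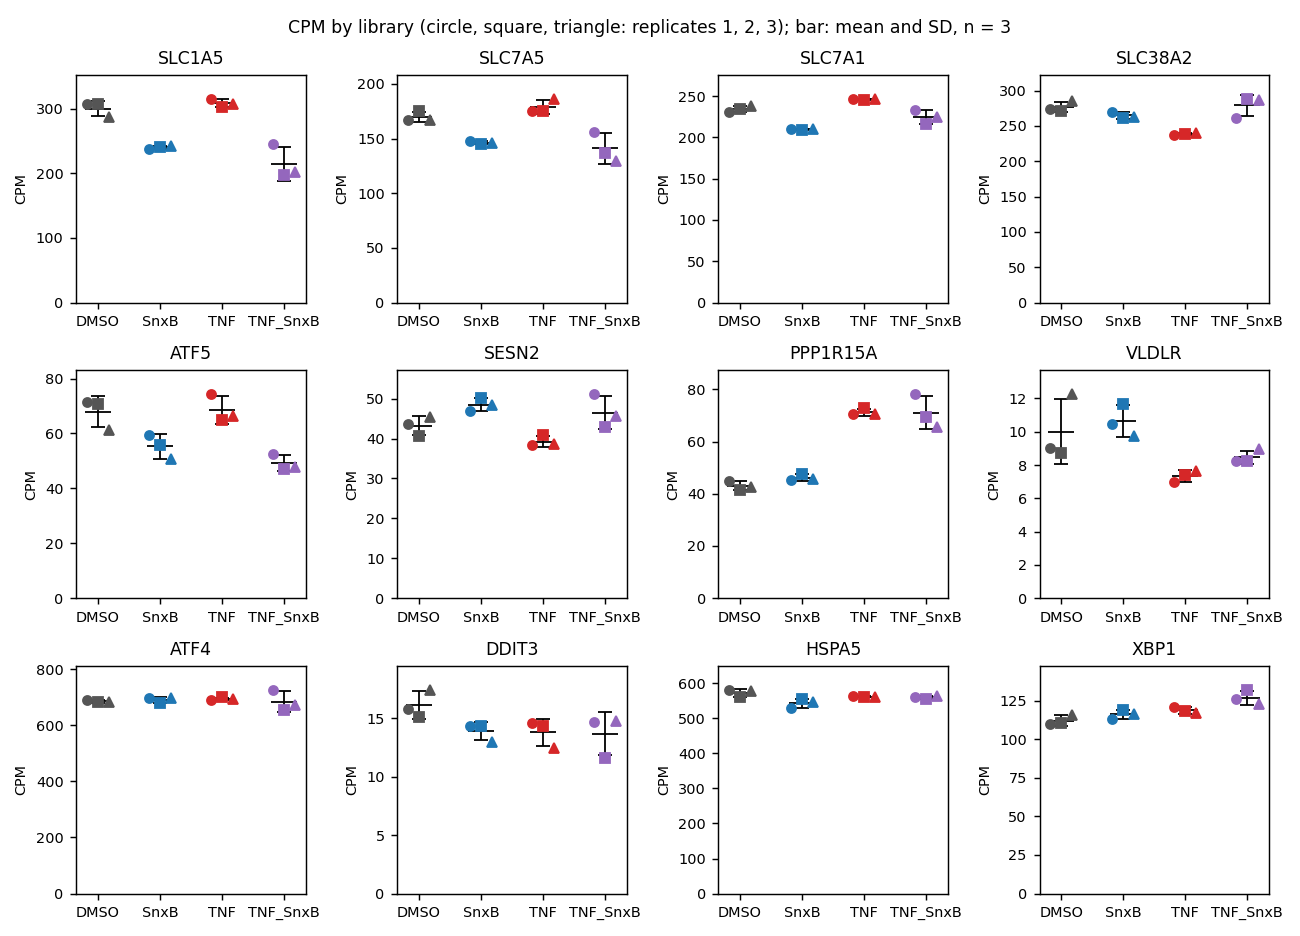
CPM in each of the 12 libraries for 12 of the genes, by group, with circles, squares and triangles for replicates 1, 2 and 3 and bars for the mean and SD (n = 3); every axis starts at 0. SLC1A5, SLC7A5 and ATF5 are lower in both groups with Senexin B, and PPP1R15A is higher in both groups with TNFα. ATF4 and HSPA5 are nearly level, and XBP1 is highest in TNF_SnxB.

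With TNFα or Senexin B against DMSO, the enzymes of synthesis were nearly level. ASNS makes asparagine, PHGDH, PSAT1 and PSPH make serine, and SHMT2 and MTHFD2 pass serine carbon into the mitochondrial folate cycle. Of these 6, 0 were called by edgeR in TNF or SnxB against DMSO, with log2 fold changes from -0.08 to 0.01 in TNF and from -0.13 to 0.01 in SnxB. At an unadjusted p under 0.05 the counts were 0 in TNF and 2 in SnxB, where 10.4% and 12.1% of all tested genes had one. The lowest value was that of ASNS, at 147 ± 4.85 CPM in DMSO and 135 ± 3.35 in SnxB (log2 -0.13, interval -0.22 to -0.04, adjusted p 0.149). It was called when TNF_SnxB libraries 2 and 3 were left out of the estimate of the spread (adjusted p 0.0110) and after the GC correction (adjusted p 0.0264), settings that are taken up with SLC3A2 below. A processed transcript on the same strand, AC079781.5, covers 79.7% of the exon bases of ASNS. SLC4A5 on the opposite strand covers 29.7% of those of MTHFD2, so the counts of ASNS and MTHFD2 are less certain. With all libraries PHGDH was called lower in TNF_SnxB against TNF (log2 -0.13, adjusted p 0.0138) and against SnxB (-0.16, adjusted p 0.0100). MTHFD2 was called higher in TNF_SnxB against SnxB (0.14, adjusted p 0.0256). Of 16 alternatives each, 9, 9 and 7 kept these calls, and library 1 alone did not.

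Of the 5 transporters the inhibitor lowered 3 in resting cells, SLC1A5, SLC7A5 and SLC7A1. SLC1A5 (ASCT2; chr19:46774883-46788594, minus strand), which brings glutamine and other neutral amino acids into the cell, stood at 307, 308 and 287 CPM in DMSO and 237, 241 and 242 in SnxB. TNF libraries held 315, 304 and 308 CPM, and TNF_SnxB libraries 245, 198 and 202. Every library with Senexin B was below every library without it, and within TNF_SnxB libraries 2 and 3 were well below library 1. SLC1A5 fell by 0.32 on the log2 scale in resting cells (SE 0.0526, adjusted p 0.000218), from 300.6 ± 12.1 to 240.2 ± 2.46 CPM, and was called in all 17 alternative settings. With TNFα present it fell by 0.53 with all libraries (adjusted p 1.66e-08), 0.33 with library 1 alone (adjusted p 5.67e-10) and 0.35 after the correction (adjusted p 1.50e-15). The interaction was -0.21 with all libraries (adjusted p 0.0984), -0.01 with library 1 alone and -0.01 after the correction. TNFα alone gave 0.04 (interval -0.07 to 0.14, adjusted p 0.883). In inhibited cells TNFα gave -0.17 with all libraries, which was called (edgeR adjusted p 0.0366). Of 16 alternatives 7 kept that call, and the value ran from -0.26 to 0.03, the latter with library 1 alone. An antisense gene, AC008622.2, overlaps 23.4% of the exon bases of SLC1A5.

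SLC7A5 (LAT1; chr16:87830023-87869488, minus strand) exchanges glutamine for leucine and other large neutral amino acids. DMSO libraries held 167, 175 and 167 CPM, SnxB libraries 148, 145 and 146, TNF libraries 176, 175 and 186, and TNF_SnxB libraries 156, 137 and 129. Again no library with Senexin B reached one without it. In resting cells SLC7A5 fell by 0.22 (SE 0.0520, adjusted p 0.0203), and leaving out any 1 of the 6 libraries compared lost the call (log2 -0.23 to -0.19, adjusted p 0.0534 to 0.121); in all, 11 of 17 alternatives kept it. With TNFα present it fell by 0.35 with all libraries (adjusted p 1.47e-05), 0.19 with library 1 alone (adjusted p 0.00979) and 0.17 after the correction (adjusted p 3.28e-05). Its pseudogenes could take some of its reads: SLC7A5P1 had 237 counts over the 12 libraries and SLC7A5P2 had 0.

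SLC3A2 (CD98), the heavy chain that carries SLC7A5 to the membrane, is described after its values were seen. It had 198, 196 and 196 CPM in the DMSO libraries, 183, 181 and 183 with Senexin B, 212, 207 and 202 with TNFα, and 191, 175 and 169 with both. Both groups with Senexin B lay below both groups without it. With TNFα present SLC3A2 was called lower by Senexin B with all libraries (log2 -0.22, adjusted p 0.000484). Of 16 alternatives 15 kept that call (log2 -0.27 to -0.09 over all 16), and library 1 alone did not. The log2 fold change in resting cells was -0.11 (interval -0.20 to -0.02, adjusted p 0.267), not called. It was called when TNF_SnxB libraries 2 and 3, whose group is not in this comparison but adds to the shared spread, were left out (adjusted p 0.0162), and after the GC correction (adjusted p 0.0229). Under those settings 9 of the 39 genes were called with the libraries left out (23.1%, against 5.66% of all tested genes) and 8 with the correction (20.5%, against 4.92%), in each case all 4 named above plus SLC3A2, ASNS, HSP90B1 and, higher, AARS. HSPA5 was the ninth.

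SLC7A1 (CAT1; chr13:29509410-29595688, minus strand), the main carrier of arginine and lysine, stood at 230, 234 and 238 CPM in DMSO and 211, 209 and 210 in SnxB. It was at 247, 245 and 246 CPM in TNF and 233, 216 and 225 in TNF_SnxB. SnxB lay below all other groups, TNF above all others, and TNF_SnxB overlapped DMSO. The inhibitor lowered it by 0.16 in resting cells (SE 0.0386, adjusted p 0.0246), a call lost when any 1 of the 6 libraries was left out (adjusted p 0.0556 to 0.132) and kept in 10 of 17 alternatives in all. In TNF-treated cells it fell by 0.13 with all libraries (adjusted p 0.0101) and the value was -0.10 without TNF_SnxB replicate 2 (adjusted p 0.0810) and -0.08 with library 1 alone (adjusted p 0.431). After the correction it was called (-0.08, adjusted p 0.0332), and 13 of 16 alternatives kept the call. TNFα in inhibited cells gave 0.10 with all libraries (adjusted p 0.0889), 0.15 with library 1 alone (adjusted p 0.0394) and 0.15 after the correction (adjusted p 0.000143).

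SLC38A2 (SNAT2; chr12:46358189-46372867, minus strand), a sodium-coupled carrier of small neutral amino acids and a classic target of amino acid shortage, was called with TNFα and not with Senexin B in resting cells. DMSO libraries held 273, 272 and 285 CPM and TNF libraries 237, 239 and 240. SnxB libraries held 270, 262 and 263 CPM and TNF_SnxB libraries 262, 288 and 287. TNF stood alone below all other groups. TNFα lowered it by 0.21 on the log2 scale (SE 0.0393, adjusted p 0.00103), and the call was kept in all 17 alternative settings (log2 -0.23 to -0.17). In inhibited cells TNFα gave 0.08 with all libraries (adjusted p 0.195), -0.02 with library 1 alone (adjusted p 0.951) and -0.06 after the correction (adjusted p 0.256), so the sign turned. Senexin B in TNF-treated cells gave 0.23 with all libraries (adjusted p 0.000147), 0.13 with library 1 alone (adjusted p 0.0568) and 0.06 after the correction (adjusted p 0.178). With all libraries the difference of the 2 effects was 0.29 (SE 0.0560, adjusted p 0.0192). SLC38A2 has the lowest GC content of the 39 genes, 38.1%, and the difference was 0.20 with library 1 alone (adjusted p 0.0797) and 0.11 after the correction (adjusted p 0.259). Of the 12 libraries, leaving out any 1 but DMSO replicate 2 or TNF_SnxB replicate 1 lost this call (adjusted p 0.0517 to 0.107).

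The genes of tRNA charging and export also held nearly level with TNFα or Senexin B against DMSO. XPOT carries tRNA out of the nucleus, and the other 9 load an amino acid onto its tRNA. Of the 10, 0 were called by edgeR in TNF or SnxB against DMSO, with log2 fold changes from -0.08 to 0.06 and from -0.06 to 0.12. At an unadjusted p under 0.05 the counts were 0 in TNF and 1 in SnxB, where 10.4% and 12.1% of all tested genes had one. The 1 was AARS, the alanine enzyme, at 167 ± 4.55 CPM in DMSO and 181 ± 1.34 in SnxB (log2 0.12, adjusted p 0.202). In TNF_SnxB against TNF, XPOT and NARS were called higher with all 3 libraries (0.14 and 0.13). Neither was called with library 1 alone (0.05 and 0.11) or after the correction (0.01 and 0.06). The tyrosine enzyme YARS was called higher after the correction in that comparison (0.12, adjusted p 0.00132) and not with all libraries (0.02) or library 1 alone (0.03). Its interaction was called after the correction as well (0.19, adjusted p 0.0241) and not with all libraries (0.08) or library 1 alone (0.10). In TNF_SnxB against SnxB, XPOT and NARS were also called higher with all libraries (0.12 and 0.11, edgeR adjusted p 0.0417 and 0.0365). Of 16 alternatives 6 and 7 kept these calls. XPOT was called lower in TNF against DMSO in 1 of 17 alternatives (log2 -0.10 to -0.04 over all 17).

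Of the 8 ER genes, 0 were called by edgeR in TNF or SnxB against DMSO. At an unadjusted p under 0.05 the counts were 0 in TNF and 3 in SnxB, where 10.4% and 12.1% of all tested genes had one. The 3 were HSPA5 and HSP90B1, with lower values, and DNAJB9, with a higher one; HSP90B1 (log2 -0.09) was called after the correction (adjusted p 0.0142), and both HSPA5 and HSP90B1 without TNF_SnxB libraries 2 and 3 (adjusted p 0.0201 and 0.000827). HSPA5 (chr9:125234853-125241330, minus strand), which binds unfolded chains in the ER, stood at 581, 560 and 578 CPM in the DMSO libraries, 529, 555 and 545 with Senexin B, 563, 560 and 562 with TNFα, and 559, 556 and 563 with both. SnxB was the lowest group, by a small margin. Its log2 fold change was -0.08 in SnxB (interval -0.14 to -0.01, adjusted p 0.286) and -0.03 in TNF (-0.09 to 0.03, adjusted p 0.840).

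XBP1 (chr22:28794555-28800597, minus strand), the factor whose mRNA IRE1 splices, had 110, 111 and 116 CPM in the DMSO libraries, 113, 119 and 116 with Senexin B, 121, 118 and 117 with TNFα, and 126, 132 and 123 with both. TNF_SnxB was above the other groups and TNF above DMSO. The log2 fold change was 0.05 in SnxB (adjusted p 0.746) and 0.08 in TNF (adjusted p 0.575) against DMSO. In TNF_SnxB against TNF it was 0.10 with all libraries (adjusted p 0.0994), 0.09 with library 1 alone (adjusted p 0.493) and 0.12 after the correction (adjusted p 0.00689). Gene counts do not separate its spliced from its unspliced form. The other ER genes were CALR, PDIA4, HSP90B1, DNAJB9, HERPUD1 and EDEM1, which fold proteins or send misfolded ones to degradation, and their log2 fold changes ran from -0.10 to 0.09 in TNF and from -0.09 to 0.23 in SnxB. The 0.23 was that of DNAJB9 (adjusted p 0.329), whose level was 12.7 ± 0.713 CPM in DMSO and 14.98 ± 1.06 in SnxB. In TNF_SnxB against TNF, DNAJB9 and EDEM1 were called higher with all libraries (0.25 and 0.21, adjusted p 0.0284 and 0.0294). Of 16 alternatives 5 and 6 kept these calls, and library 1 alone did not. HSP90B1 was called lower in TNF against DMSO in 3 of 17 alternatives (log2 -0.08 to -0.04 over all 17).

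Set beside the sequences above, the 9 genes with a C/EBP-ATF core in the window had 0 calls in TNF against DMSO and 1, SLC7A1, in SnxB against DMSO, with medians of 0.02 and -0.09. The 25 genes with a window but no such core had 3 and 3 calls, with medians of -0.01 and -0.04. The 4 genes with an ER stress response element had 0 calls by edgeR in all 5 comparisons with all libraries, with log2 fold changes from -0.09 to 0.15. These counts are too small for a comparison, and none was tested.

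Other genes of the pathway were taken from a list. Of 63 listed, covering eIF2α kinases and sensors, further ATF4-linked genes, transporters, tRNA synthetases and ER genes, 60 passed the filter (GDF15, FGF21 and SLC7A3 did not). TNFα raised 2 of the 60 and lowered 2 (6.67%, against 2.02% of all tested genes), and Senexin B lowered 4 and raised 0 (6.67%, against 2.03%). All of the Senexin B calls were ATF4-linked genes. ATF3, a stress-induced factor, had 48.5 ± 4.92 CPM in the DMSO libraries, 30.1 ± 1.27 with Senexin B, 73.7 ± 1.37 with TNFα and 40.7 ± 3.16 with both. It rose by 0.60 on the log2 scale with TNFα (adjusted p 6.09e-08) and fell by 0.70 with Senexin B (adjusted p 1.76e-07). DDIT4, an inhibitor of mTORC1, fell with either agent, by 0.54 with TNFα (adjusted p 1.19e-06) and by 0.73 with Senexin B (adjusted p 1.76e-08). STC2, a secreted glycoprotein, also fell with either, by 0.36 (adjusted p 0.000444) and 0.56 (adjusted p 2.10e-06). SLC7A11, the cystine-glutamate exchanger, fell by 0.57 with Senexin B (adjusted p 0.000749). PPP1R15B, the constitutive paralogue of PPP1R15A, rose by 0.24 with TNFα (adjusted p 0.00212). Of 5 further transporters, 11 further tRNA synthetases and 18 further ER genes, 0 were called by edgeR in either comparison.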

How the data were processed

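The deposited table holds the authors' raw counts, with a row for each gene symbol and a column for each library. Per the submitters' processing notes STAR 2.4, SAMtools 1.2 and featureCounts of Subread 1.4.6 were used with hg38; the annotation, the strand setting and other options were not stated there. From the deposited counts, genes were filtered with filterByExpr, normalized with TMM factors and tested in the quasi-likelihood model of edgeR 4.0.16 in R 4.3.3 (1 mean per group, all 12 libraries, no replicate block). Contrasts were tested two-sided, and p-values were adjusted by Benjamini-Hochberg over 14822 genes. Intervals are 95% intervals of the fit. The pipeline was tested on simulated data. Replicates are labelled biological, with no word on separate cultures, so p-values measure only the spread between these samples, which may be technical. The floor of 3 counts covers counting error only. GC content and exon length came from GENCODE 29, with a value for 39 of 39 genes and 90.5% of tested genes, and the correction was a loess fit per library (span 0.3). Sequences are from RefSeq (GRCh38.p14).

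The genes and the lists were chosen with earlier results of these data known. Values in every library are given for ATF4, DDIT3, HSPA5 and XBP1 and for genes called in any comparison, where comparisons with TNF_SnxB also had to be called with library 1 alone. Other pathway genes are named where called in TNF or SnxB against DMSO. Alternatives were DESeq2 1.42.0 (size factors, and its test), library size alone, no filter, only the groups compared, the replicate block, GC and length offsets, and leaving out libraries. Added after seeing the data were leaving out TNF_SnxB replicate 1 where its group is not compared and thinning TNF replicate 2 to 10465100 counts.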

Additional observations from a re-analysis of the deposited data

Results flagged for a closer look

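The effect of TNFα on SLC38A2, a carrier of small neutral amino acids, differed between cells with and without Senexin B by a test of the difference itself: the interaction was 0.29 on the log2 scale (SE 0.0560, edgeR adjusted p 0.0192). The means were 277 ± 7.40 CPM in DMSO, 239 ± 1.64 in TNF, 265 ± 4.71 in SnxB and 279 ± 15.02 in TNF_SnxB. TNF_SnxB library 1 had 262 CPM, and libraries 2 and 3, which follow GC content, had 288 and 287. With library 1 alone the difference was 0.20 (adjusted p 0.0797), with the GC and length correction 0.11 (adjusted p 0.259), and over all alternatives the adjusted p ran from 3.76e-11 to 0.265. It was called in 8 of 21 alternatives. Leaving out a single library kept the call for DMSO replicate 2 and TNF_SnxB replicate 1, and lost it for each of the other 10.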

How the results depend on the processing

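Called genes among the 39 were counted again under each alternative. In the main test 2.03%, 2.02%, 27.2%, 14.2% and 2.5% of all tested genes were called, in the order below. No such share is given for the fits without 1 library, with only the groups compared, with no filter or with the replicate block. Their counts are therefore not read as particular to the 39 genes. In SnxB against DMSO the count of 4 became 8 with GC and length offsets, 8 with the replicate block and these offsets, and 9 with only the groups compared, without TNF_SnxB replicates 2 and 3, or without TNF_SnxB replicate 1; without 1 library of the groups compared it was 1 to 2. In TNF against DMSO the 3 became 5 without TNF_SnxB replicate 1, and 2 to 3 without 1 library. In TNF_SnxB against TNF the 13 became 4 without TNF_SnxB replicates 2 and 3, and 9 to 26 without 1 library (26 without TNF_SnxB replicate 1). In TNF_SnxB against SnxB the 8 became 1 with only the groups compared, 2 without replicates 2 and 3, and 1 to 22 without 1 library (22 without TNF_SnxB replicate 1). The interaction count of 1 became 2 with the DESeq2 test, with no filter and with the replicate block, 0 without replicates 2 and 3, and 0 to 20 without 1 library (20 without TNF_SnxB replicate 1). The cause was not tested.

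Of 3382 values of single genes under the alternatives, 234 turned sign, in 83 pairs of a gene and a comparison. Of these, 226 were called neither before nor after, and 8 had a call on one side. In TNF_SnxB against TNF, GC offsets without and with the replicate block gave 0.0907 and 0.0892 for ATF4, 0.1187 and 0.1274 for PPP1R15A, and 0.004 and 0.0021 for PHGDH. In TNF_SnxB against SnxB, ATF4 was 0.075 with the block and offsets and SLC1A5 0.0294 without replicates 2 and 3. Of the rest 2910 kept sign and call, 100 gained a call and 138 lost one. Same-numbered libraries did not deviate together (12 pairs, correlations -0.0402 to 0.0170). That does not show whether same-numbered samples were handled together, which the labels do not say. The replicate block alone left 4, 3, 13 and 8 called in the 4 comparisons between groups.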
